A study of Mus musculus with 16 samples.

Results

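Chromatin regions called as accessible in the pancreatic islets of CAST and WSB mice, and in no other founder strain, were examined. Overlapping or touching autosomal peaks of the 16 sample lists were merged, and a region was kept where both CAST samples and both WSB samples had a peak and none of the other 12 samples had one. This gave 1164 regions out of 347712 merged autosomal regions, or 0.335%. The regions were therefore chosen by their peak calls, and the absence of a peak in the other strains is how they were selected and not a finding.

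The assay was ATAC-seq, which uses a transposase to insert sequencing adapters wherever DNA is open. It had been run on pancreatic islets of the 8 inbred strains that founded the Diversity Outbred mouse population. The strains were 129S1_SvImJ, A_J, C57BL/6J, CAST_EiJ, NOD_ShiLtJ, NZO_HlLtJ, PWK_PhJ and WSB_EiJ, referred to as 129, AJ, B6, CAST, NOD, NZO, PWK and WSB. There was 1 sample of each sex per strain, with no genetic alteration or treatment named in the labels. Each sample was made from 50 islets, and the ages of the animals and the number pooled in a sample were not given in the sources used here. A strain thus had no replicates beyond its 2 sexes, and no batch was given. The labelled tissue was checked against its markers. A peak within 1 kb of a start site was present for 16 of 18 islet marker genes in each of the 4 CAST and WSB samples. Sst and Ppy were listed at 0 in all 4. For other cell types, such a peak was present in all 4 samples for 13 of 15 duct, 5 of 15 endothelial, 5 of 15 stellate and mesenchymal, 4 of 20 leukocyte and 4 of 21 acinar marker genes.

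Accessible chromatin marks promoters, where transcription starts, and enhancers, which lie away from promoters and carry sites for transcription factors. Islets are small clusters of endocrine cells, mostly insulin-producing beta cells, with some duct, endothelial, mesenchymal and immune cells among them. CAST and WSB are both wild-derived but belong to different subspecies of the house mouse, Mus musculus castaneus and Mus musculus domesticus. In tissue made of several cell types, fewer cells of a type and less open chromatin per cell cannot be told apart.

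The middle 200 bases of 7 of the regions are given here because the results below describe them: 3 of the 10 regions with the highest signal (nearest to Tlr1 and in introns of Ntsr1 and Crocc2), the region most different between the strains (Pdzrn4), 1 called higher in WSB (nearest to Klhl6), and 2 at islet genes (Cacna1a and Tcf7l2). They are the plus strand of the GRCm38 (mm10) reference, which is the C57BL/6J sequence, so bases that CAST or WSB carry in its place are not shown. Capitals mark matches, on either strand, to letters typical of transcription factor sites. The stretches lie at chr5:64906049-64906248, chr2:180541846-180542045, chr1:93186140-93186339, chr15:92489955-92490154, chr16:19904922-19905121, chr8:84528156-84528355 and chr19:55742434-55742633, in the order printed.
Tlr1-nearest member: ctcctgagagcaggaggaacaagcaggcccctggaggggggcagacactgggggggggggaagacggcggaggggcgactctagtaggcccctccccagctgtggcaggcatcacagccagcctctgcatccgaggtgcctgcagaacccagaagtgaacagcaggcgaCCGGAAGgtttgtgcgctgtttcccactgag
Ntsr1 intron member: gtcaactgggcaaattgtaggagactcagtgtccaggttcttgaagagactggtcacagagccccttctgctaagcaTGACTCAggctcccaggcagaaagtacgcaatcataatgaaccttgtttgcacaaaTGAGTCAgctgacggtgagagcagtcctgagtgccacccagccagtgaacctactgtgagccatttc
Crocc2 intron member: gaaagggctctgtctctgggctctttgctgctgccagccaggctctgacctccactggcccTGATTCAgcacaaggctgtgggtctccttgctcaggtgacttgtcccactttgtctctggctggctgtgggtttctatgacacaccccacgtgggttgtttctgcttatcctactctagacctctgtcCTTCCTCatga
Pdzrn4 member: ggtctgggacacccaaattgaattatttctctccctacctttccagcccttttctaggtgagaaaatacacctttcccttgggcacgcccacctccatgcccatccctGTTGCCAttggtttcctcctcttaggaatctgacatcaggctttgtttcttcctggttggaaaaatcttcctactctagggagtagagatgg
Klhl6-nearest member: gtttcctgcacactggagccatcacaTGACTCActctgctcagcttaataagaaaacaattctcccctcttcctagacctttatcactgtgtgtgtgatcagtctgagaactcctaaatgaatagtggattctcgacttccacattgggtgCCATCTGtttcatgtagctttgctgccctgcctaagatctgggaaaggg
Cacna1a intron member: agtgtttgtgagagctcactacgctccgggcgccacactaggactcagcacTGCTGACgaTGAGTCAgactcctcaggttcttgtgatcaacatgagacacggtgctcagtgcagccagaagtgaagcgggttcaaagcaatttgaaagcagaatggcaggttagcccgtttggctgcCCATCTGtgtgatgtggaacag
Tcf7l2 promoter member: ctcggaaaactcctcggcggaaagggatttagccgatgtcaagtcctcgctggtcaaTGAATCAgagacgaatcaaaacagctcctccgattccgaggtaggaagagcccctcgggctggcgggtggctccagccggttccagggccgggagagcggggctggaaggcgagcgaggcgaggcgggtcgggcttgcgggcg

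The letters marked were TGANTCA for AP-1, the dimers of Fos and Jun proteins that respond to growth and stress signals, and CAGATGG for the E-box bound by the islet factor NEUROD1. CCGGAAG stood for ETS factors, TGCTGAC for MAF factors, GTTGCCA for RFX factors and GAGGAAG for SPI1. The MAF and AP-1 letters can share bases. In the Ntsr1 intron region, AP-1 letters matched at 2 places, starting at bases 78 and 134 of the printed stretch. In the Cacna1a intron region, MAF letters at base 52, AP-1 letters at base 61 and E-box letters at base 179 stood within the 200 bases. The Pdzrn4 region held RFX letters and the Tlr1-nearest region held ETS letters, and neither had an AP-1 match in the printed 200 bases. Each match is a description of the reference letters and not evidence that a factor was bound.

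To see how the sharing between CAST and WSB ranked among strain pairs, regions called in all 4 samples of a pair and in no other sample were counted for each of the 28 pairs. CAST and WSB had the most, 1164 of 3683 regions of this kind (31.6%), followed by CAST and PWK with 1024. PWK and WSB, the other wild-derived pair, had 287, and NZO and WSB had 224. The median pair had 33, the lowest had 8, and 20 pairs had fewer than 100. The rank moved with the length of the lists. The WSB female had the longest list, with 167051 autosomal peaks, and the AJ male the shortest, with 77887, while the CAST female had 140841, the CAST male 134813 and the WSB male 133259. When only the 77887 strongest peaks of each sample were used, CAST and WSB shared 190 regions and fell to rank 2 behind CAST and PWK with 521, and 55 of the 190 overlapped the 1164 regions. The strain lists were also used at an irreproducible discovery rate (IDR) of 0.05, which asks for peaks ranked alike in the female and the male list. CAST and WSB then had 8382 regions and rank 1. In that count a strain was absent if it had no peak at this IDR, whatever its sample lists held. Of the 1164 regions, 88 reached this IDR in both CAST and WSB, so the 8382 were largely other regions.

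**Figure D1:**
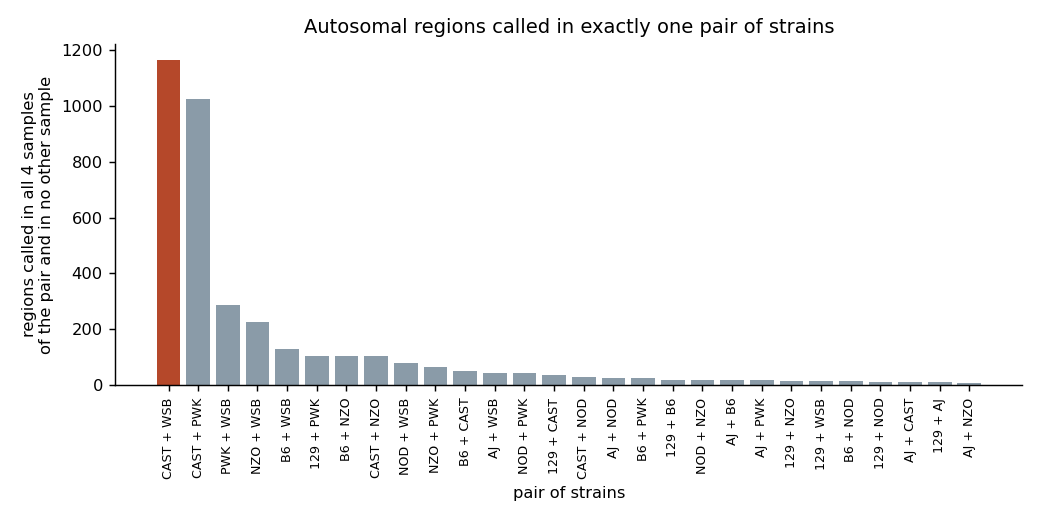
Number of autosomal regions (vertical axis) called in all 4 samples of a strain pair and in no other sample, for each of the 28 pairs (horizontal axis), with CAST and WSB in red. CAST and WSB stand at 1164, CAST and PWK at 1024, and the next pair at 287.

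The rule was a strict one, and many regions missed it by 1 sample. A further 3043 regions had a peak in 3 of the 4 CAST and WSB samples and in none of the 12 others, and the missing sample was the WSB male in 1965 of them, the CAST male in 455, the CAST female in 376 and the WSB female in 247. Another 2102 regions had a peak in all 4 and in 1 of the 12 others, which was the PWK female in 606 and the NZO male in 465. The AJ male was the extra sample in 11. Leaving out the WSB male would thus have given 3129 regions and leaving out the PWK female 1770, while leaving out any of the other 14 samples gave 1175 to 1629.

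Values just inside and just outside the rule lay close together. Signal is given as scaled signal, the deposited signal at the summit of a peak divided by the median summit of that sample over the 40940 regions called in all 16 samples, so that 1 is a typical shared region. The median scaled signal was 0.180 over the 1164 regions (mean of the 4 samples), 0.151 over the regions with 1 of the 4 samples missing and 0.192 over those with 1 other sample. In the latter, the single other sample had a median of 0.236. The weakest member, in an intron of Prim2, a primase subunit, at chr1:33568600-33569199, had scaled signals of 0.0566 and 0.0735 in the CAST female and male and 0.0755 and 0.0227 in the WSB female and male. Outside the rule, a region near Hgd, an enzyme of tyrosine breakdown, had 0.755 to 0.841 in the 4 samples and was kept out by a peak of 0.891 in the NZO male. Low signal was thus common on both sides of the rule.

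Most of the 1164 regions were weakly accessible. The median scaled signal was 0.189 in the CAST female, 0.176 in the CAST male, 0.160 in the WSB female and 0.170 in the WSB male, and at least 99.5% of the regions lay below the median shared region in each sample. The mean over the 4 samples ran from 0.0571 to 1.07, with 13 regions above 0.5 and 1 above 1. The summit signal as deposited had medians of 20, 24, 17 and 15 in the same order of samples, against 106, 136, 106 and 88 in the shared regions. The deposited significance was modest too, with median −log10 p-values of 1.99, 1.66, 2.00 and 1.02. In the strain lists, 1115 of the 1164 regions had a peak in CAST and 1047 in WSB, but 335 (28.8%) and 170 (14.6%) reached an IDR of 0.05 or less, and 88 (7.56%) did so in both. Over all 85001 regions called in the 4 samples, 65.3% did so in both.

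The regions formed the low end of a gradient. Among the 85001 regions with a peak in both CAST and both WSB samples, the 1164 with no peak elsewhere were the smallest class and the 40940 with a peak in all 12 others the largest, and the classes with 1 to 11 other samples held 2102 to 7860 each. The median scaled signal in CAST and WSB rose at every step, from 0.180 with none and 0.202 with 2 to 0.376 with 10 and 1.02 with 12. The class with 12 is the set of shared regions that gave the scale, so its value near 1 follows from the scaling. Median width rose from 367.5 to 1144.5 bases. A region spans the merged peaks of all its samples, so its width can grow merely because more samples have a peak. The share at promoters stayed between 23.8% and 26.3% from 0 to 11 other samples and was 41.0% with 12.

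**Figure D2:**
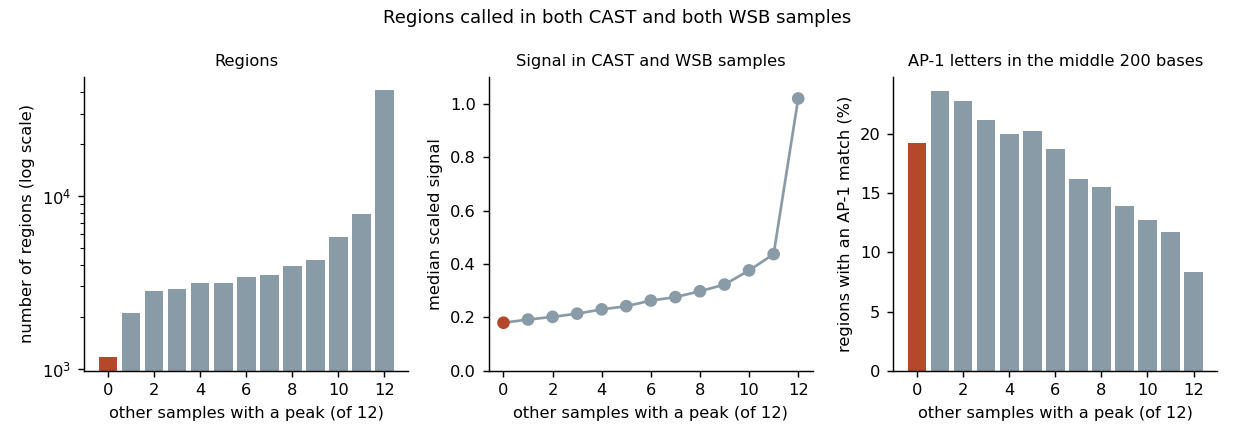
Regions called in both CAST and both WSB samples, by the number of the 12 other samples with a peak (horizontal axis). The panels give the number of regions on a log scale, the median scaled signal over the 4 samples, and the percentage of regions with AP-1 letters. The 1164 regions with no other peak (red) have the fewest members and the lowest signal, 0.180, and an AP-1 share of 19.2%.

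By position, 302 of the 1164 regions (25.9%) lay within 3 kb of a transcription start site, 66 (5.67%) elsewhere in exons, 453 (38.9%) in introns and 343 (29.5%) between genes. Within 1 kb of a start site lay 148 (12.7%). The share at promoters was 21.9% in the 6249 regions called in CAST alone, 18.0% in the 3524 called in WSB alone and 41.0% in the shared regions. The share between genes was 38.1%, 37.9% and 26.9% in the same order. The median distance to a start site was 8752.5 bases, and the median gap to the nearest region called in all 16 samples was 15190.5 bases. Within 1 kb of such a shared region lay 41 of the regions (3.52%), a share much like the 3.66% of CAST alone and the 4.03% of WSB alone.

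The share of reference bases in repeats, soft-masked in the genome, averaged 15.7% over the middle 200 bases of the regions. It was 29.2% in the regions of CAST alone, 16.7% in those of WSB alone, 37.4% in those of CAST and PWK, and 11.6% in the shared regions. Median GC content was 46.2%, between 44.0% for WSB alone and 48.0% for the shared regions. In repeat content the regions called in CAST and WSB thus lay nearer to WSB alone than to CAST alone.

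Of 17 motifs searched, AP-1 differed most from the shared regions in percentage points. TGANTCA was found in the middle 200 bases of 223 of the 1164 regions (19.2%), against 13.5% of all 347712 regions and 8.35% of the shared ones. The share was 27.9% in the regions of WSB alone and 9.31% in those of CAST alone, with 19.2% between them. It was 23.2% in the 478 regions of CAST, PWK and WSB and 9.38% in those of CAST and PWK. Across the regions called in CAST and WSB, the share was highest with 1 other sample (23.6%) and fell to 11.7% with 11. In regions of up to 400 bases, the letters were found for 26.4% of 736 regions here and 15.1% of all regions. For WSB alone the share was 30.6%, for CAST alone 10.0% and for the shared regions 7.96%. The 200 bases searched run past the ends of a narrower region. Median width was 367.5 bases over the 1164 regions, 200 for WSB alone and 205 for CAST alone. In the 190 regions found with equal numbers of peaks the share was 28.9%. Within the 1164 regions it was 19.2% at promoters, 21.6% in introns and 16.6% between genes.

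The other motifs stood closer to the background in percentage points, though not all did so as ratios. NEUROD1 E-box letters were found in 8.08% of the regions, 5.72% of all regions and 5.83% of the shared ones. The promoter-type letters GGGCGGG of SP and KLF factors were in 2.49% of the regions, 2.17% of all regions and 7.63% of the shared ones. The homeobox letters TAATTA, which PDX1 recognises, were in 7.56% against 6.34% of all regions, and the FOXA letters TGTTTAC in 4.55% against 4.52%. MAF letters were in 5.67% against 4.57%, GATA letters AGATAA in 11.6% against 11.9%, and NFI letters TGCCAA in 12.0% against 11.3%. CTCF letters AGGGGGC were in 3.61% against 2.51% of all regions and 5.23% of the shared ones. The letters for RFX, RUNX (TGTGGTT), SPI1, NKX2-2 (CACTTGA), ETS, CRE (TGACGTCA), HNF4A (CAAAGTCCA) and NRF1 (GCGCATGCG) were in 3.18%, 4.64%, 6.70%, 2.84%, 1.37%, 0.258%, 0.258% and 0.0859% of the regions, against 2.92%, 4.93%, 7.06%, 3.16%, 1.02%, 0.288%, 0.367% and 0.0768% of all regions.

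**Figure D3:**
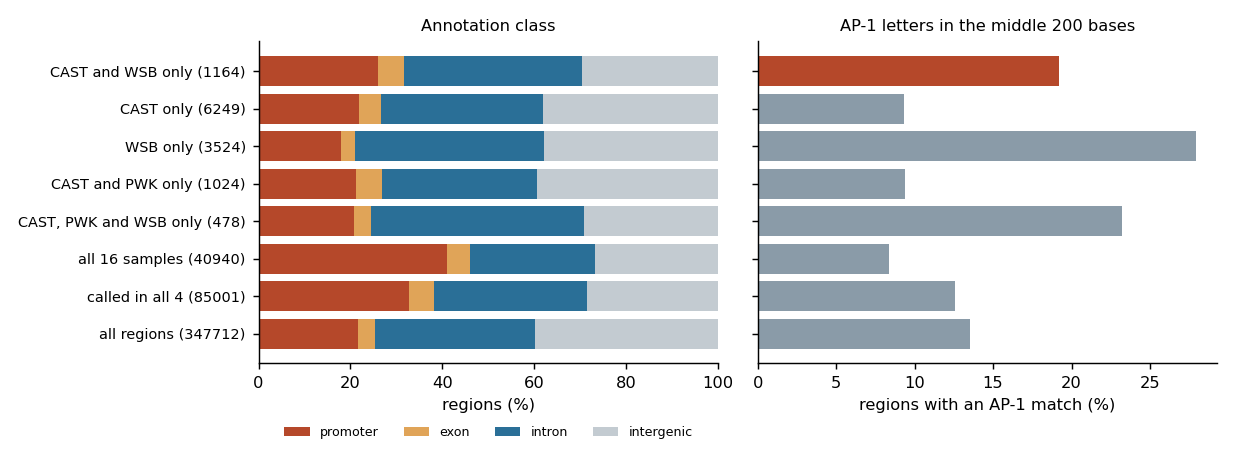
Annotation classes as percentages of regions (left) and the percentage of regions with AP-1 letters in the middle 200 bases (right), for the 1164 regions and the classes set beside them, with the number of regions in brackets. The promoter share of 25.9% lies between those of the single-strain classes and the shared regions, and the AP-1 share of 19.2% between CAST alone and WSB alone.

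The rule asked for a peak in both strains but not for equal signal, so the difference between CAST and WSB could be tested. It was fitted with limma on log2(summit + 1), centred per sample on the shared regions, over all 85001 regions called in the 4 samples. At an adjusted p under 0.05, 192 of the 1164 regions (16.5%) differed, against a background of 35.5% of all regions tested. With regions of low signal left out, 156 of the 1164 remained, and 73 of them (46.8%) differed, against 42.4% of all regions tested. That filter used the mean over the 4 samples, which high signal in either strain alone can raise. These shares therefore cannot show what low signal does to the calls. Signal was higher in CAST in 129 (11.1%, background 17.7%) and higher in WSB in 63 (5.41%, background 17.7%). The median log2 difference was 0.11 over the 1164 regions and 0.03 over all 85001. Fold changes are on the log2(summit + 1) scale and understate the change of low regions. The split of calls between CAST and WSB moved with the scaling and with the samples used. It was 192 against 19 with no centring, which also moved the median of all regions tested from 0.03 to 0.34, and 127 against 21 with the deposited mean signal. Without the CAST female it was 54 against 54. Calls among the 1164 regions numbered 108 (9.28%) without the CAST female and 124 (10.7%) without the WSB female, and over all regions tested the share fell too, to 26.7% and 23.9%. With 1 sample left out, the lone sample of a strain is assumed to vary like those of the other strain.

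**Figure D4:**
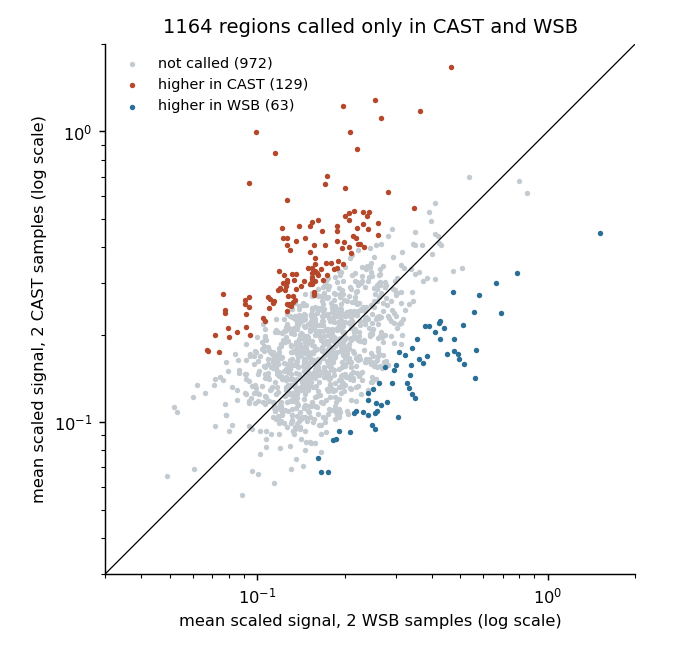
Mean scaled signal in the 2 CAST samples (vertical axis, log scale) against that in the 2 WSB samples (horizontal axis, log scale) for each of the 1164 regions, with the line of equality. Red points are the 129 regions called higher in CAST, blue points the 63 called higher in WSB, and grey points the 972 not called.

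Among the 10 regions with the highest mean signal, 6 were called higher in CAST and 1 higher in WSB. Over all 1164 regions the shares were 11.1% and 5.41%, and over all 85001 they were 17.7% in each direction. The 10 were chosen by the mean of the 4 samples, which high signal in either strain alone can raise. The highest lay between genes at chr5:64905678-64906619, 26142 bases from the start site of Tlr1, a receptor for bacterial lipopeptides. Its scaled signal was 1.53 in the CAST female, 1.80 in the CAST male, 0.547 in the WSB female and 0.386 in the WSB male. Both CAST values lay above both WSB values, and the log2 difference was 1.83 (SE 0.20, limma adjusted p = 1.17e-10). In an intron of Ntsr1, a neurotensin receptor, at chr2:180541692-180542199, the signals were 1.16 and 1.19 in the CAST female and male and 0.321 and 0.409 in the WSB female and male (log2 difference 1.67, SE 0.22, limma adjusted p = 1.20e-08). This is the region with the pair of AP-1 matches printed above. An intron of Ralgapa1, a GTPase-activating protein for Ral, held a region at chr12:55666926-55667566 with 1.30 and 1.14 in the CAST female and male and 0.179 and 0.216 in the WSB female and male (2.57, SE 0.24, limma adjusted p = 1.02e-12).

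Others higher in CAST among the 10 lay near the start of Blvra, a biliverdin reductase, and in the olfactory receptor pseudogene Olfr1345-ps1. The Blvra region at chr2:127072400-127072966 had 0.887 and 1.11 against 0.292 and 0.125, and the Olfr1345-ps1 region at chr7:6446676-6447302 had 1.19 and 1.38 against 0.226 and 0.284, with the female before the male and CAST before WSB. Both CAST values lay above both WSB values in each, and the log2 differences were 2.31 and 2.29 (limma adjusted p of 1.39e-09 and 7.27e-12). Of the middle 200 bases of the Blvra region, 76.0% were repeat.

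The 1 region among these 10 that was higher in WSB lay at chr8:19277391-19277673, 15687 bases from the start site of Defb3, an antimicrobial beta-defensin. It had 0.368 and 0.529 in the CAST female and male and 1.57 and 1.47 in the WSB female and male (log2 difference -1.76, SE 0.20, limma adjusted p = 6.07e-10). Defensins and olfactory receptors come in families with near-identical copies, between which aligned reads could have been split, so the signal of both of these regions is uncertain. The remaining 3 were not called. The region between genes nearest to Reep3, at chr10:66719429-66720200, had 0.679, 0.669, 0.906 and 0.693 in the CAST female, CAST male, WSB female and WSB male. An intron of Crocc2, a relative of the ciliary rootlet protein, at chr1:93185995-93186483, had 0.547, 0.676, 0.840 and 0.864 in that order (-0.48, SE 0.21, limma adjusted p = 0.0674), and the promoter of Ccdc88b at chr19:6848008-6848677 had 0.736, 0.654, 0.538 and 0.534 (0.37, SE 0.22, limma adjusted p = 0.200).

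The smallest adjusted p of all belonged to a region 2844 bases from the start site of Pdzrn4, at chr15:92489505-92490604. Its scaled signal was 1.03 in the CAST female and 0.971 in the CAST male, and 0.0849 and 0.114 in the WSB female and male. In CAST it was thus as accessible as a typical shared region, while the WSB summits were 9 and 10 in deposited units (log2 difference 3.22, SE 0.29, limma adjusted p = 1.99e-13). A region between genes at chr12:20680200-20680399, nearest to the Arf regulator Asap2 but 310060 bases away, had 0.830 and 0.860 in CAST and 0.0943 and 0.136 in WSB (2.79, SE 0.29, limma adjusted p = 2.86e-11). These strong differences held a WSB peak that only just met the rule.

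After the Defb3 region, the 4 regions with the smallest adjusted p higher in WSB were nearest to Klhl6, Mtcl1, Crebrf and Hhla1. The region nearest to Klhl6, a ubiquitin ligase adaptor of B lymphocytes, lay 61120 bases from it at chr16:19904844-19905199 and carried AP-1 and E-box letters. It had 0.0566 in the CAST female, 0.228 in the CAST male, 0.547 in the WSB female and 0.580 in the WSB male (-2.20, SE 0.36, limma adjusted p = 2.05e-06). Of 20 leukocyte marker genes, a peak within 1 kb of a start site was present for 5 in each CAST sample and 6 in each WSB sample. Their part in this result was not tested. The region in Mtcl1, a microtubule crosslinker, at chr17:66410459-66411156, lay 24549 bases from its start site and had 0.245 and 0.228 in CAST and 0.736 and 0.648 in WSB (-1.51, limma adjusted p = 5.52e-06). In an intron of Crebrf, a regulator of the CREB3 factor, at chr17:26764348-26764986, the values were 0.208 and 0.147 against 0.557 and 0.580 (-1.66, limma adjusted p = 8.20e-06). The region nearest to Hhla1 lay in an intron of Kcnq3, a voltage-gated potassium channel subunit, at chr15:66013800-66014167, with 0.236 and 0.0809 in CAST and 0.472 and 0.557 in WSB (-1.83, limma adjusted p = 2.16e-05). All 4 had both WSB samples above both CAST samples.

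AP-1 letters were found in 27.0% of the 63 regions higher in WSB, in 13.2% of the 129 higher in CAST and in 19.4% of those not called. Of the 223 regions with AP-1 letters, 17 (7.62%) were higher in CAST and 17 (7.62%) in WSB, with a median log2 difference of -0.00. Of the 941 without them in the bases searched, 112 (11.9%) were higher in CAST and 46 (4.89%) in WSB, with a median of 0.14. Over all 85001 regions, with or without the letters, 17.7% were called in each direction. The order of the AP-1 shares was the one found between the regions of WSB alone and of CAST alone, and no test was made of it. As given above, the split of calls between the strains moved with the scaling and the samples used.

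Within a strain, the signals of the female and the male were more closely correlated over the regions than those of samples from different strains. Over the 1164 regions, Pearson's r of log2 signal was 0.710 between the CAST samples, 0.598 between the WSB samples and 0.290 to 0.327 between a CAST and a WSB sample. Over all 85001 regions called in the 4 samples the same values were 0.963, 0.961 and 0.825 to 0.851. These are correlations across regions, which are not independent replicates, and the narrow range of low signals in the 1164 regions enters them. The rule asked for a peak in the female and the male of both strains, so regions with a peak in 1 sex alone could not enter. When sex was tested with strain in the model, none of the 1164 regions differed at a limma adjusted p under 0.05. The background, under the same limit, was 0.0212%, or 18 of 85001 regions. At an unadjusted p under 0.05 there were 46 (3.95%), against 4.31% of all regions. The largest female excess was in an intron of the noncoding gene Gm20754 at chr3:73268000-73268799, with 0.151 and 0.0662 in the CAST female and male and 0.0943 and 0.0114 in the WSB female and male (log2 difference 1.66, SE 0.60, limma adjusted p = 0.962). The largest male excess was near Gm5591 at chr7:38531400-38531853, with 0.0755 and 0.162 in CAST and 0.0660 and 0.193 in WSB (-1.22, SE 0.46, limma adjusted p = 1.000).

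Promoters of protein-coding genes, within 1 kb of a start site, were led by Ccdc88b, Ncs1, Pygo1, Psd2, Lrp5, Rasgrp2, Dmrt3, Aldh3a2, Pkd2 and Prkd2. Of these 10, 3 were called higher in CAST and 1 higher in WSB. The shares were 11.1% and 5.41% over all 1164 regions, and 17.7% in each direction over all 85001. These promoters too were chosen by the mean of the 4 samples, which high signal in either strain alone can raise. The Ncs1 promoter, of a neuronal calcium sensor that acts in exocytosis, at chr2:31245514-31246132, had 0.726 and 0.515 in the CAST female and male and 0.349 and 0.216 in the WSB female and male (log2 difference 1.12, SE 0.27, limma adjusted p = 8.32e-04). The Prkd2 promoter, of a protein kinase D, at chr7:16848675-16848936, had 0.472 and 0.456 against 0.179 and 0.261 (1.06, SE 0.29, limma adjusted p = 0.00325). The Aldh3a2 promoter, of a fatty aldehyde dehydrogenase, at chr11:61250155-61251051, had 0.594 and 0.375 against 0.340 and 0.182 (0.89, SE 0.30, limma adjusted p = 0.0153), and here the CAST male lay close to the WSB female. The calls at Prkd2 and Aldh3a2 were lost under some alternatives, with adjusted p of up to 0.0687 and 0.311.

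The Pkd2 promoter, of a calcium-permeable channel that is mutated in polycystic kidney disease, was the 1 promoter of the 10 that was higher in WSB. At chr5:104492554-104492912 it had 0.198 and 0.235 in CAST and 0.462 and 0.557 in WSB (-1.20, SE 0.28, limma adjusted p = 6.49e-04, or 0.0783 with the deposited mean signal). The other promoters were not called. Among them were 2 genes of Wnt signalling, the coactivator Pygo1 with 0.453, 0.529, 0.340 and 0.455 at chr9:72925203-72926035 and the coreceptor Lrp5 with 0.425, 0.404, 0.358 and 0.489 at chr19:3685194-3687338, in the order CAST female, CAST male, WSB female, WSB male. The guanine nucleotide exchange factor gene Rasgrp2 at chr19:6404620-6405116 had 0.311, 0.353, 0.481 and 0.466, the exchange factor gene Psd2 at chr18:35964991-35965334 had 0.491, 0.397, 0.368 and 0.455, and the DM-domain factor gene Dmrt3 at chr19:25610541-25611199 had 0.481, 0.331, 0.368 and 0.330. At these promoters the values of the strains overlapped or differed by less than the fit could call. Of the 10 promoters, 4 lay on chromosome 19.

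Regions were then assigned to the protein-coding gene with the nearest start site and counted over gene lists. The 1164 regions fell to 999 of 20780 genes (4.81%), and made up 1.37% of the regions called in the 4 samples. For 33 islet transcription factor genes there were 6 regions at 3 genes, Rfx6, Glis3 and Tcf7l2, or 1.28% of 468. For 45 genes of glucose sensing and insulin secretion there were 12 regions at 8 genes, or 1.62% of 743. For 61 genes with type 2 diabetes associations there were 15 regions at 11 genes, or 1.82% of 825. The 10 islet hormone genes had 1 region of 38 (2.63%) and the 23 unfolded protein response genes had 2 of 176 (1.14%). Of the lists for other cell types of the pancreas, duct and endothelial genes had 1 region each (1.27% of 79 and 1.22% of 82), and acinar, stellate and leukocyte genes had none of 41, 77 and 37. All of these shares rest on few regions.

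Between CAST and WSB, 1 of the 6 regions at islet transcription factors was called higher in CAST and none higher in WSB. Of the 12 at secretion genes 2 were called higher in WSB, at Cacna1a and Ptprn2, and of the 15 at diabetes genes 1 was, at Tle4, with none higher in CAST in either list. These small counts are to be read beside the shares over all 1164 regions, which were 11.1% higher in CAST and 5.41% higher in WSB, and over all 85001 of 17.7% in each direction. None of the regions at hormone, unfolded protein response, duct and endothelial genes was called. The region higher in CAST was nearest to Rfx6, a factor required to form islet cells, but 100782 bases from its start site. At chr10:51794553-51795099 it had 0.472 and 0.522 in the CAST female and male and 0.189 and 0.136 in the WSB female and male (log2 difference 1.56, SE 0.30, limma adjusted p = 4.22e-05). The region in an intron of Cacna1a, the pore of the P/Q-type calcium channel, at chr8:84528125-84528385, was higher in WSB, with 0.179 and 0.110 in CAST and 0.321 and 0.352 in WSB (-1.21, SE 0.34, limma adjusted p = 0.00381, and up to 0.0652 under the alternatives). Its sequence with AP-1, MAF and E-box letters is printed above. The called region in an exon of Ptprn2, a granule membrane protein, at chr12:116823600-116824599, had 0.123 and 0.0515 in CAST and 0.217 and 0.148 in WSB (-1.10, SE 0.43, limma adjusted p = 0.0408). The one nearest to Tle4, a corepressor, lay 490834 bases away at chr19:15088885-15089199 and had 0.170 and 0.103 in CAST and 0.255 and 0.273 in WSB (-0.96, SE 0.36, limma adjusted p = 0.0315). In both, the WSB values lay above the CAST values, and the calls were lost under 4 and 5 of 9 alternatives. These 2 regions were named after their values were seen.

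At Tcf7l2, a Wnt effector in which the strongest common diabetes association of humans lies, 2 regions met the rule at the promoter. The first, chr19:55742414-55742652, lay 72 bases from a start site and 475 bases from a shared region, and had 0.330 and 0.257 in the CAST female and male and 0.160 and 0.193 in the WSB female and male (0.69, SE 0.33, limma adjusted p = 0.0980). The second, chr19:55743530-55743951, had 0.226, 0.221, 0.226 and 0.227 in the CAST female, CAST male, WSB female and WSB male, with nearly no spread. Glis3, a factor of beta cell development, had an intron region at chr19:28499972-28500549 with 0.255, 0.206, 0.226 and 0.193 in the same order. Neither of the last regions was called.

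The other regions named at islet genes were low and were not called. The region nearest to Ins1, an insulin gene, at chr19:52038685-52039254, lay 225043 bases away and had 0.179, 0.184, 0.198 and 0.193 in the CAST female, CAST male, WSB female and WSB male. The region between genes nearest to Slc30a8, the zinc transporter of insulin granules, at chr15:52367697-52368599, had 0.255, 0.287, 0.132 and 0.193 (0.72, SE 0.34, limma adjusted p = 0.0978). A region in Atp2a2, the gene of a calcium pump of the endoplasmic reticulum, 9131 bases from its start site at chr5:122491665-122492486, had 0.274, 0.235, 0.208 and 0.0795 (0.90, SE 0.38, limma adjusted p = 0.0552). In another region at Ptprn2, in an intron at chr12:116766366-116766799, the values were 0.236, 0.0956, 0.198 and 0.239, and in an intron of Prox1, a developmental homeobox gene, 0.368, 0.184, 0.236 and 0.159. Of the unfolded protein response genes, an intron of the sensor Ern1 had 0.208, 0.0662, 0.123 and 0.182, and the region nearest to the chaperone gene Dnajb9, 111069 bases away, had 0.123, 0.132, 0.151 and 0.125. The duct gene Anxa4 and the endothelial gene Flt1 had regions with 0.292, 0.0956, 0.123 and 0.0909 and with 0.236, 0.301, 0.160 and 0.273.

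Along the genome the regions were spread over all 19 autosomes, but not evenly. Chromosome 19 held 88 of them, 3.64% of its 2420 regions called in the 4 samples and 1.43 per megabase, and chromosome 11 held 86 (2.40%). Chromosome 18 held 16 (0.606%), the lowest share, and the share over all autosomes was 1.37%. In windows of 1 Mb, 1645 of 2414 windows had no such region, 522 had 1, and 13 had 5 or more. The fullest windows were on chromosome 6, with 12 of 39 regions called in the 4 samples (30.8%) in the window that starts at 59 Mb and 9 of 36 (25.0%) in the next. A window on chromosome 19 that starts at 32 Mb, with Atad1, Papss2 and Sgms1 among the nearest genes, had 9 of 87, and windows on chromosomes 19, 2, 6 and 7 had 6 each. Of the 999 genes, 882 had 1 region, while Gprin3 had 19 and Atg7, Cadps, Gm5591 and Snd1 had 5 each.

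The 19 regions assigned to Gprin3 formed a block on chromosome 6, chr6:59795644-60126086, 330.4 kb long. It lay 369.4 to 698.4 kb from the start site of Gprin3, which is simply the nearest protein-coding gene, and its annotated genes were Gm5570 and Gm18012. In this block the CAST female had a peak in 48 regions, the CAST male in 41, the WSB female in 100 and the WSB male in 99, while the other 12 samples had a peak in 0 to 6. No region of the block was called in all 16 samples, 22 were called in WSB alone and 0 in CAST alone. The 19 regions were wide, with a median of 1560 bases and up to 9190, the widest of all 1164, and uniformly low, with mean scaled signals from 0.129 to 0.278. None of the 19 held AP-1 letters. The share called higher in WSB was 5.41% over the 1164 regions and 17.7% over all 85001. Of the 19, 4 were called higher in WSB (log2 difference -0.81 to -1.20) and none in CAST. These calls were weak: each was lost in at least 4 of its 9 alternatives. Thus many wide and low peaks lay side by side in the same stretch in all 4 samples, more of them in WSB than in CAST. Without the block, 1145 regions remained, with 26.2% at promoters, 28.8% between genes and 19.5% with AP-1 letters.

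**Figure D5:**
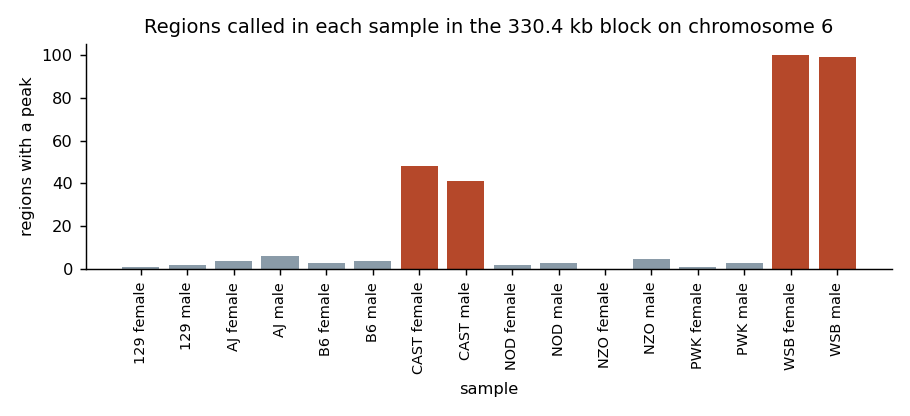
Number of regions with a peak in each of the 16 samples (vertical axis) in the 330.4 kb block on chromosome 6. The WSB samples have 100 and 99, the CAST samples 48 and 41, and the other 12 samples 0 to 6.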

How the data were processed

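ATAC-seq peak lists from islets of 8 strains were used. Per the study's methods and the submitters' processing notes, adapter trimming by the authors used cutadapt 2.0 and alignment to mm10 used Bowtie2 2.3.4.1. Mitochondrial, duplicated and unmapped reads were then taken out (SAMtools, Picard 2.9.2), and MOSAiCS called peaks per sample, at an FDR of 0.05. Whether read ends were shifted for the transposase was not given. The deposited summit signal and mean signal are not scaled to depth, and the deposited significance is a −log10 p-value, and the strain lists, in which the authors paired female and male, hold a −log10 IDR. In the strain lists, 16 columns of per-sample values were not used. The lists hold no read totals, so depth is unknown here and no counting interval is given. A value of 0 stands for the lack of a peak past the threshold, not for closed chromatin. Longer lists can raise the count of regions.

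Peaks that touched or overlapped were merged on chromosomes 1 to 19, and the highest summit in a region was a sample's signal. The regions, gene lists and motifs were chosen with earlier results of these data known. Strain and sex were tested with limma 3.58.1 (R 4.3.3, moderated test with trend, Benjamini-Hochberg over all 85001 regions), which was checked on simulated data. With 1 female and 1 male a strain, p-values measure the spread between these samples. Genes came from GENCODE M21 and sequence from GRCm38; no region was filtered against a list of problem regions. Motif letters were searched on both strands in the middle 200 bases, which run past the ends of a narrower region.

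Regions named in the text were the 10 with the highest mean signal, the 10 such promoters, up to 4 per gene list, the 5 most significant in each direction between strains, the extremes between sexes, the genes and windows with the most regions, and the weakest inside and strongest outside the rule. Of the sex extremes and of those around the rule, only some are named. Some items that this rule names are not reported here. The alternatives were the merging, list lengths, strain lists, coverage of a region, promoter distance, gene types, signal measure, scaling, pseudocount, a filter on low signal, the motif window, and leaving out samples. Leaving out the block on chromosome 6, narrow regions alone, and AP-1 shares with equal lists were chosen after seeing the data.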

Additional observations from a re-analysis of the deposited data

Results flagged for a closer look

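Chromosome X, which the comparisons did not use, held 30 regions with a peak in both CAST and both WSB samples and in none of the other 12, out of 2795 regions called in the 4 samples (1.07%). Their median scaled signal was 0.175 in the CAST female, 0.158 in the CAST male, 0.193 in the WSB female and 0.159 in the WSB male. They drew attention only as data outside the autosomes that showed the same pattern, and no test was made of them.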

How the results depend on the processing

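The count of 1164 regions was 1163 when merging needed a shared base and 1258 when a peak had to cover at least 50% of a region. It was 665 with the more significant 50% of the peaks of each sample, 190 with equal numbers of strongest peaks and 8382 with the strain lists, and it ranged from 1175 to 3129 when 1 sample was left out, the highest being without the WSB male. The promoter share of 25.9% became 12.7% within 1 kb, 18.6% with protein-coding genes alone and 29.5% with equal lists. The intron share of 38.9% became 45.8% within 1 kb. With protein-coding genes alone, exons were not set apart, so introns and exons together held 44.2%, and the share between genes became 37.2%. The median scaled signal of 0.180 was 0.321 with the deposited mean signal and 0.692 when scaled to all autosomal peaks. The AP-1 share of 19.2% was 22.2% in 300 bases, 26.4% in regions of up to 400 bases and 28.9% with equal lists, and the E-box share of 8.08% was 10.8% in 300 bases. The cause of these shifts was not tested, beyond the joining of exons to introns and the fewer or more peaks, bases or genes that each alternative takes in.

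Of the 192 regions called between CAST and WSB, the count was 148 to 211 under 5 of the alternatives, 73 when regions of low signal were left out, which kept 156 of the 1164 regions (46.8% called, against 42.4% of all tested), and 108 to 157 with 1 sample left out. Sex gave 0 calls under each of the 5 alternatives run, with 7 to 50 regions at an unadjusted p under 0.05. Leaving out a sample was not run for sex because it leaves no spread to test against. With sex as a term, which pairs the female and the male of the strains, 192 regions were called. No paired analysis was possible because the labels give no replicate numbers, beyond this pairing by sex. For 67 named regions, 580 of 629 values kept their side of the threshold, 37 fell below it and 11 passed it. Direction was compared only for regions called between CAST and WSB. Some regions not called changed sign, as the Psd2 promoter did from 0.10 to -0.33 with the deposited mean signal. In the block on chromosome 6, the log2 difference of the region at chr6:59811637-59815766 turned from -0.87 to 0.24 with the deposited mean signal (limma adjusted p = 0.550). Low signal, with summit medians of 15 to 24, limits what can be called here.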
